A study of Homo sapiens with 6 samples.

Results

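Centrosomal genes were followed in RNA that co-purified with phosphorylated UPF1. The set holds 40 of the 26364 genes in the deposited table. It takes each gene whose symbol is CEP and a number, with an optional B or L, and adds PCNT, CDK5RAP2, NIN, PCM1 and CAMSAP2. The set was proposed with the comparison described here in view, because CEP135 and CAMSAP2 were among its largest increases. The difference between the groups is therefore given for these genes as a description, and no test over the set is made.

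The 6 libraries were made from HEK293T, an established line derived from embryonic kidney and transformed, grown with fetal bovine serum and given 200 nM okadaic acid for 3 h. Okadaic acid blocks phosphatases that dephosphorylate UPF1, the helicase of nonsense-mediated mRNA decay (NMD). The p-UPF1 IP group (replicates 3, 6 and 9) is RNA recovered with an antibody to phosphorylated UPF1. The control group (replicates 1, 4 and 7) is titled pre-IP but carries a rabbit IgG antibody label, so whether it is input RNA or a mock IP is not settled by the labels, and both groups carry the drug. Values called pre-IP are those of the libraries with that title, and "rose" and "fell" compare p-UPF1 IP with them. RNA was depleted of ribosomal RNA and ligated to adapters at both ends before PCR. Whether replicates were separate cultures is not labelled. The p-values therefore describe library-to-library spread, part or all of which may be technical. In these bulk lysates fewer cells with an mRNA and less mRNA per cell cannot be told apart.

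The centrosome is built from a pair of centrioles, cylinders of microtubules, in a shell of pericentriolar material that nucleates microtubules through gamma-tubulin. Centrioles are copied once per cell cycle under the kinase PLK4, and the older centriole bears appendages that anchor microtubules and dock a cilium. CEP proteins and their partners are mostly long coiled-coil scaffolds, and many are mutated in microcephaly or ciliopathies. NMD degrades mRNAs on which translation ends in an unfavourable context, and phosphorylated UPF1 marks mRNAs engaged in that decay.

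The coding sequences of the set show what most of these mRNAs share. Coiled coils are rich in glutamate, lysine and glutamine, and the codons for these residues made up a median of 26.8% of codons in the 40 genes, against 18.1% in the 7467 protein-coding genes tested. The share of such codons ran from 16.2% in CEP170B to 35.8% in CEP83. The stretch of 30 codons with most such codons is printed for 4 members, 5′ to 3′, with those codons in capitals. CEP135 and CEP152 were called higher in p-UPF1 IP and CEP290 and CEP164 were not, so the feature is found on both sides of the call. Each stretch was picked for these codons and shows them by construction, and none from genes outside the set is given beside it.
CEP135: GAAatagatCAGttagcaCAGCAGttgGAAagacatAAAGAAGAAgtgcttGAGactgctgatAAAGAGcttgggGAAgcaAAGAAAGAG
CEP152: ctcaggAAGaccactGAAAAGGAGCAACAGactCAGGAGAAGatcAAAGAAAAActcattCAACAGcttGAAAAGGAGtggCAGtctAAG
CEP290: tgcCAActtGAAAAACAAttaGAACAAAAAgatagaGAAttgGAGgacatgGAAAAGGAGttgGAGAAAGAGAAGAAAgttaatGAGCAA
CEP164: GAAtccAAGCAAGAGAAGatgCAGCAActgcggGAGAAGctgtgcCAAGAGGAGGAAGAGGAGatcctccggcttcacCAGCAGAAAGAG
These stretches come from GENCODE 29 transcripts and start at base 961 of the coding sequence in CEP135, 2239 in CEP152, 352 in CEP290 and 1834 in CEP164. They hold 15, 19, 19 and 19 such codons. Of these codons 8, 7, 12 and 6 end in A. The GC content of the stretch ran from 34.4% in CEP290 to 54.4% in CEP164, the member with more G-ending codons.

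Pre-IP libraries held 600244 to 1179369 counts each, and those of p-UPF1 IP held 905926 to 2057647. The set was thinly counted in pre-IP, with 1200 counts in all against 9855 in p-UPF1 IP. Pre-IP replicate 4 was the thinnest, with 144 counts of the set and 12 of its 40 genes at 0, and 15 genes were at 0 in at least 1 pre-IP library, while none was at 0 in a p-UPF1 IP library. All 8 genes fixed as HEK293T markers were detected, VIM most of all, although PAX2 and LHX1 had no pre-IP count. Of 12 markers of other cell types 8 had no count in any library, and the summed level of the list was 0 to 10.4 CPM (counts scaled to a common total after TMM correction of the library sizes) across pre-IP libraries, against 1.68 to 4.28 CPM for p-UPF1 IP. PCR reads without molecular identifiers are not independent molecules, so counting intervals and floors cover counting error only.

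As a share of all counts the set took 0.0578%, 0.0240% and 0.0396% of pre-IP replicates 1, 4 and 7, and 0.245%, 0.149% and 0.227% of p-UPF1 IP replicates 3, 6 and 9. Every p-UPF1 IP library thus lay above every pre-IP library, and the mean share was 5.12 times as large. Levels below are CPM scaled by TMM, which sets a typical gene as unchanged, and on that scale the summed level was 678 ± 181 CPM for pre-IP against 1231 ± 280 for p-UPF1 IP (SD, n = 3), a 1.82-fold difference.

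Of the 40 genes 33 had enough counts to be tested, and p-UPF1 IP exceeded pre-IP by the call rule in 8 and fell short of it in 0. The rule is an adjusted p of at most 0.05 (Benjamini-Hochberg over 8070 genes) in the quasi-likelihood test of edgeR. Over all genes tested 8.81% were called higher and 10.9% lower, 19.7% in either direction, and of protein-coding genes 9.17% were called higher. At an unadjusted p under 0.05 in that test there were 10 higher and 0 lower in the set, against 1396 higher and 1349 lower of all 8070 genes. With limma-voom there were 8 and 0 in the set, where 8.07% of all genes were higher. DESeq2 called 9 members higher (10.2% of all genes), and 10 of 40 were called with no filter on low counts (7.32% of all genes). The median log2 fold change was 0.48 in the set and 0.10 over all genes tested, with 23 members positive and 10 negative. With CEP135 and CAMSAP2 left out, 6 of 31 tested members were called higher (19.4%), and the median was 0.46. Without p-UPF1 IP replicate 3, the deepest library, the order turned, at 0.0321 in the set and 0.0871 over all genes. Nothing about the set is read from these counts, because the comparison was in view when it was chosen. A gene high in p-UPF1 IP alone can pass the filter on low counts through that group, so the 33 are not a neutral sample of the 40.

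**Figure D1:**
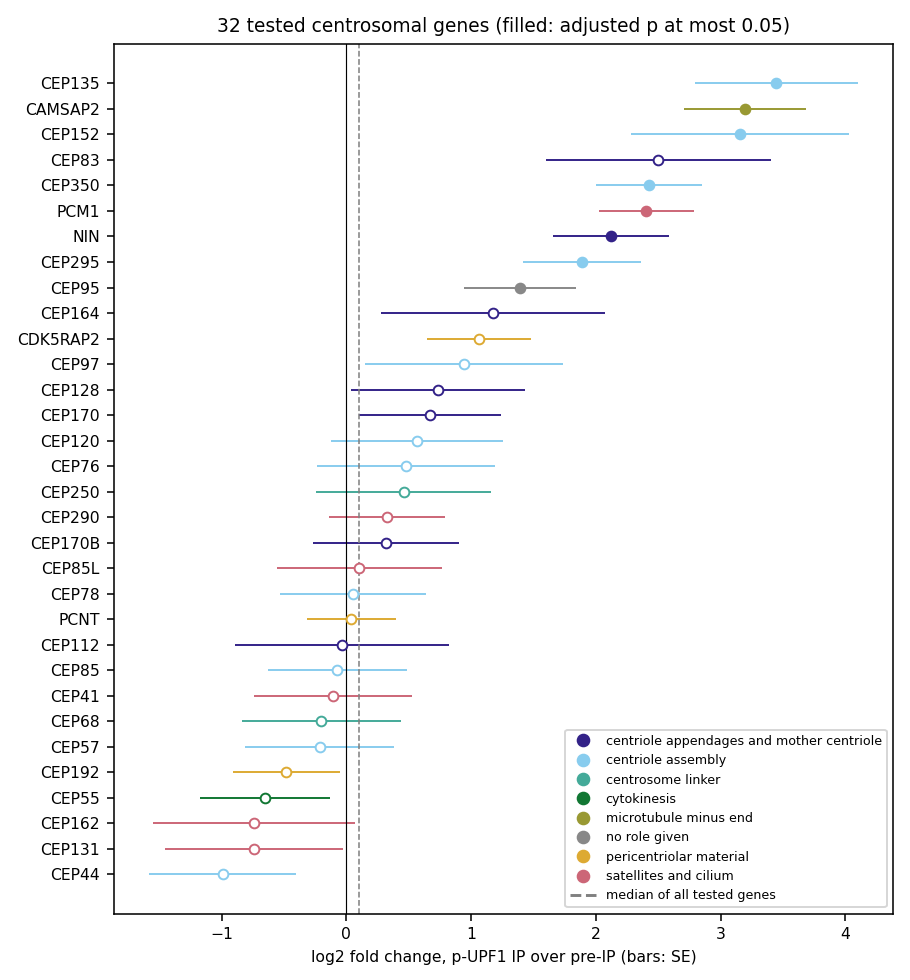
Log2 fold change of p-UPF1 IP over pre-IP for 32 of the 33 tested genes, with bars for the standard error, coloured by role and filled where the gene was called. The 8 filled points run from 1.39 (CEP95) to 3.45 (CEP135), and the lowest point is CEP44 at -0.99.

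The genes of centriole assembly held 4 of the 8 calls, among 11 tested of 13 (36.4%, against 8.81% of all genes tested). These 4 have transcripts of 5000 bases or more, and 17.0% of all tested genes of such length were called higher. CEP135, a protein of the centriole wall and cartwheel, was at 2.56, 0 and 6.91 CPM in pre-IP replicates 1, 4 and 7 and at 51.6, 35.3 and 33.6 CPM in p-UPF1 IP replicates 3, 6 and 9. The groups lay far apart, on 6 pre-IP counts and 326 in p-UPF1 IP. Its log2 fold change was 3.45 (SE 0.65), the largest of the set and one of the values that led to its choice. CEP152, which recruits PLK4 to the parent centriole, was at 6.40, 0 and 0 CPM in pre-IP and 35.7, 12.0 and 30.8 CPM in p-UPF1 IP. It was seen in only 1 pre-IP library, with 5 counts, and its log2 fold change of 3.15 (SE 0.87, adjusted p = 0.0177) is correspondingly loose. The call was lost without p-UPF1 IP replicate 3 (2.90, adjusted p = 0.109) or 9 (3.08, adjusted p = 0.0789), and without pre-IP replicate 1, which leaves no pre-IP count, the fitted value was 8.50.

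CEP350, a very long microtubule-binding protein of the centriole, had 32.0, 35.8 and 8.64 CPM in pre-IP and 174, 100.5 and 122 CPM in p-UPF1 IP. The lowest p-UPF1 IP library was well above the highest pre-IP library (log2 fold change 2.43, SE 0.42, adjusted p = 0.000919). With the length trend removed the value was 1.48, and it was still called. CEP295, needed for a new centriole to become a centrosome, rose from 15.4, 3.58 and 15.6 CPM to 56.2, 43.0 and 43.6 CPM (1.89, SE 0.47, adjusted p = 0.00972). The p-UPF1 IP values were tight and the pre-IP values were not. Omitting p-UPF1 IP replicate 3 ended the call (1.76, adjusted p = 0.0752), as did removal of the length trend (1.26, adjusted p = 0.0814). The small Cajal body RNA gene SCARNA9 lies inside CEP295. It has its own row, with 3362 pre-IP counts against 3458 p-UPF1 IP counts, and a log2 fold change of -2.37. Of the 25-base windows of CEP295 14.5% also occur in transcripts of other genes. AP001273.1, on the other strand, shares 12.2%. Whether reads of such genes were counted for CEP295 was not tested.

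The other 7 tested genes of centriole assembly were not called. CEP97, which caps centrioles together with CCP110, was at 17.9, 0 and 1.73 CPM in pre-IP and 14.7, 13.1 and 19.0 CPM in p-UPF1 IP. Its groups overlapped through pre-IP replicate 1 alone (log2 fold change 0.95, adjusted p = 0.432), and without that library it was 3.68 and called (adjusted p = 0.0376). CEP120, a factor of centriole elongation, had 14.1, 0 and 13.8 CPM in pre-IP and 16.5, 14.6 and 16.2 CPM in p-UPF1 IP, groups that sit next to each other without overlap (0.56, SE 0.69). CEP76 (0.48), CEP78 (0.05) and CEP57 (-0.21) had overlapping groups. CEP85 was at 49.9, 0 and 38.0 CPM in pre-IP and 35.7, 32.0 and 25.2 CPM in p-UPF1 IP (-0.07), with the pre-IP libraries on both sides. CEP44, a protein of the centriole wall, had the lowest value of the set, at 8.96, 28.6 and 43.2 CPM in pre-IP and a narrow 13.7, 12.4 and 13.4 CPM in p-UPF1 IP (-0.99, SE 0.59, adjusted p = 0.254). Its pre-IP libraries held both the lowest and the highest value and so enclosed the p-UPF1 IP group.

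Among appendage genes 1 of 7 tested was called higher (14.3%, against 8.81% of all genes tested). NIN, or ninein, which anchors microtubules at subdistal appendages, had 16.6, 3.58 and 19.0 CPM in pre-IP and 88.9, 50.2 and 51.5 CPM in p-UPF1 IP. Each p-UPF1 IP library was above each pre-IP library (log2 fold change 2.12, SE 0.47, adjusted p = 0.00425). Without p-UPF1 IP replicate 3 the value was 1.80 and the call was lost (adjusted p = 0.0553). CEP83, which builds the base of the distal appendages, was at 5.12, 3.58 and 0 CPM in pre-IP and 28.4, 9.46 and 13.4 CPM in p-UPF1 IP. The groups did not overlap, but 5 pre-IP counts left a wide error (2.50, SE 0.90, adjusted p = 0.0594), and DESeq2 called it (adjusted p = 0.0436). CEP164, a distal appendage protein required to form cilia, was at 15.4, 0 and 0 CPM in pre-IP and 7.94, 18.9 and 17.3 CPM in p-UPF1 IP, with overlap through 1 pre-IP library (1.18, SE 0.90). Without that library, pre-IP replicate 1, no pre-IP count is left, and the gene was called (adjusted p = 0.0245). The subdistal appendage genes CEP128 (0.73) and CEP170 (0.67), with CEP170B (0.32) and CEP112 (-0.03), were not called.

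CEP170 is the member whose reads are hardest to place. Of its 25-base windows 54.3% also occur in transcripts of other genes, nearly all in the pseudogene CEP170P1, and the longest identical run inside the coding sequence is 396 bases. The first 60 bases of that run, from base 2376 of the coding sequence, show why an insert of this length cannot be given to 1 of the 2 genes.
CEP170: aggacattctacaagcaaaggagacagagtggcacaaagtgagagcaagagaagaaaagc
CEP170P1 itself had 0 pre-IP counts against 4 p-UPF1 IP counts. How reads with several matches were counted is not given in the sources used here, so the level of CEP170, at 37.1, 3.58 and 8.64 CPM in pre-IP and 36.7, 24.4 and 29.1 CPM in p-UPF1 IP, is uncertain. Without pre-IP replicate 1 its log2 fold change was 2.13 (adjusted p = 0.0337).

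None of the 3 genes of the pericentriolar material was called in the main analysis. PCNT, or pericentrin, the scaffold of that material, was at 88.3, 78.8 and 93.3 CPM in pre-IP and 136, 48.8 and 84.5 CPM in p-UPF1 IP. It was the most counted pre-IP member, with 145 counts, and its p-UPF1 IP libraries lay on both sides of the pre-IP range (log2 fold change 0.04, SE 0.36, adjusted p = 0.950). CDK5RAP2, which attaches gamma-tubulin complexes to the centrosome, was at 21.8, 78.8 and 34.6 CPM in pre-IP and 110.3, 70.3 and 76.1 CPM in p-UPF1 IP. Pre-IP replicate 4 alone reached the p-UPF1 IP range (1.06, SE 0.42, adjusted p = 0.0799), and without it the value was 1.67 and called (adjusted p = 0.00886). CDK5RAP2 was called in 5 of 18 alternatives, including limma-voom (adjusted p = 0.0198). CEP192, which brings Aurora A and PLK4 to the centrosome, was at 61.4, 21.5 and 34.6 CPM in pre-IP and 39.7, 22.9 and 25.7 CPM in p-UPF1 IP (-0.48, SE 0.43). CEP250 and CEP68, of the linker that ties the centrioles together, were at 0.46 and -0.20, both with overlapping groups.

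Of the satellite and cilium genes 1 of 7 tested was called higher (14.3%, against 8.81% of all genes tested). PCM1, the scaffold of the centriolar satellites that carry proteins to the centrosome, had 32.0, 21.5 and 19.0 CPM in pre-IP and 171, 85.9 and 139.8 CPM in p-UPF1 IP. The lowest p-UPF1 IP library was above the highest pre-IP library, on 42 and 1045 counts (log2 fold change 2.41, SE 0.38, adjusted p = 0.00036). CEP290, a protein of the ciliary transition zone and of satellites, was at 71.6, 21.5 and 27.6 CPM in pre-IP and 86.4, 30.6 and 43.6 CPM in p-UPF1 IP, with overlap through pre-IP replicate 1 (0.32, SE 0.46, adjusted p = 0.671). Pre-IP replicate 1 and p-UPF1 IP replicate 3 were the highest of their groups. CEP131, a satellite protein, was at 23.0, 7.16 and 6.91 CPM in pre-IP and 9.16, 4.73 and 10.1 CPM in p-UPF1 IP (-0.74, SE 0.72). CEP162, a protein of the centriole end and transition zone, was at 15.4, 0 and 6.91 CPM in pre-IP and 3.67, 6.92 and 5.03 CPM in p-UPF1 IP (-0.74, SE 0.81). Both had overlapping groups and few counts, as did CEP85L (0.11) and CEP41 (-0.11), the latter a factor of tubulin glutamylation in cilia.

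CAMSAP2, which binds and stabilises free microtubule minus ends, was at 7.68, 10.7 and 3.46 CPM in pre-IP and 66.6, 52.1 and 69.4 CPM in p-UPF1 IP. Relative to their mean the p-UPF1 IP values had the smallest spread of the 8 called genes, on 485 counts against 11 in pre-IP. The log2 fold change was 3.19 (SE 0.49), which is the other value that led to the choice of the set. CEP55, which recruits the machinery of final abscission to the midbody, was at 56.3, 7.16 and 25.9 CPM in pre-IP and 23.5, 17.8 and 20.7 CPM in p-UPF1 IP. Its pre-IP libraries enclosed the p-UPF1 IP range (-0.65, SE 0.52, adjusted p = 0.404).

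CEP95 rose from 26.9, 7.16 and 17.3 CPM to 55.0, 37.9 and 55.9 CPM (log2 fold change 1.39, SE 0.45, adjusted p = 0.0361). The groups did not overlap, yet this was the least stable of the 8 calls. It was lost without any 1 library other than pre-IP replicate 1 (adjusted p = 0.0598 to 0.149), with limma-voom (adjusted p = 0.101) and after removal of the length trend (adjusted p = 0.0956). CEP95 also lies against DDX5, an abundant RNA helicase gene on the other strand, which shares 14.8% of the 25-base windows of CEP95 and had 1009 pre-IP counts against 4173 p-UPF1 IP counts. The strand setting of the counting is not given in the sources used here, so reads of DDX5 in the shared stretch cannot be told apart from reads of CEP95. DDX5 itself had a log2 fold change of -0.26. In all, 15 of the 40 members have a span that meets a protein-coding gene on the other strand, 2 of them called. Among these PSMG2 shares 14.4% of the windows of CEP76, and FBXO8 5.39% of those of CEP44. Whether reads of such genes were counted for these members was not tested.

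**Figure D2:**
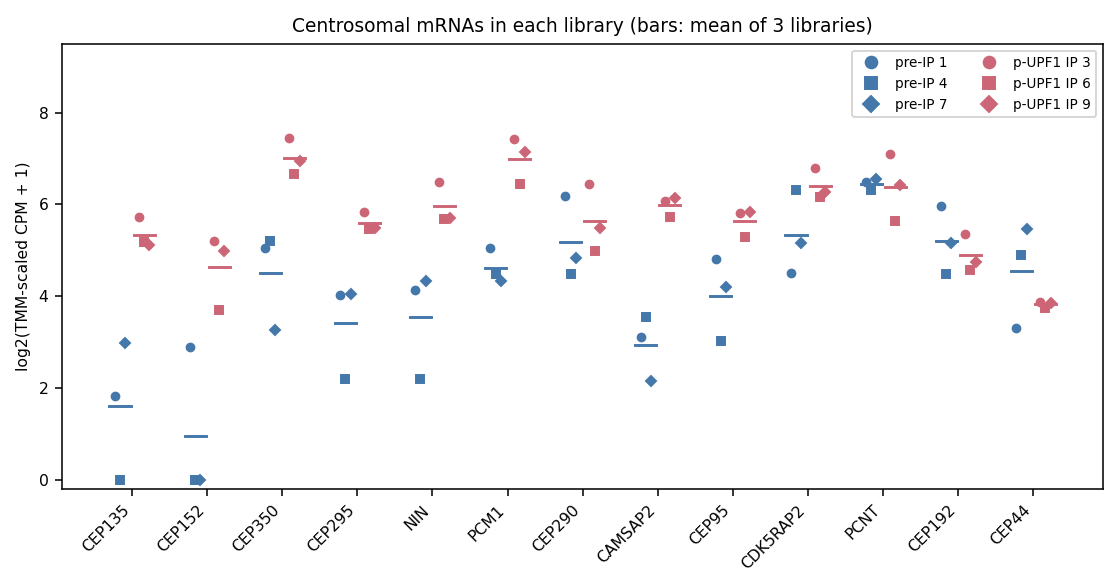
TMM-scaled CPM in each of the 6 libraries for 13 members, as log2(CPM + 1), with a bar for the mean of 3 libraries. CEP135, CEP152, CEP350, CEP295, NIN, PCM1, CAMSAP2 and CEP95 have groups that do not meet, PCNT has groups that overlap, and CEP44 has its highest pre-IP value at 43.2 CPM against 13.7 CPM in the highest p-UPF1 IP library.

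The groups did not overlap for 11 of the 33 tested members, all with p-UPF1 IP above (33.3%, against 21.9% of all genes tested with p-UPF1 IP above and 17.7% with it below). Among them were the 8 called genes, CEP83 and CEP120. Pre-IP replicate 4 was the lowest pre-IP library for 19 of the 33 and p-UPF1 IP replicate 3 the highest p-UPF1 IP library for 22, on the scaled level.

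The 7 members that were not tested had low counts. CEP126 had 0 pre-IP counts against 21 p-UPF1 IP counts, spread over the p-UPF1 IP libraries as 8, 8 and 5. Scaled for library size, the 21 counts were 1.47 times a floor of 3 counts over the pre-IP group. That ratio takes the 21 counts as exact. CEP19, which acts at the start of ciliogenesis, had 3 pre-IP counts against 10 p-UPF1 IP counts, a ratio of 0.700 with an exact (Clopper-Pearson) 95% interval of 0.180 to 3.96. CEP63, the partner of CEP152, had 9 and 44 counts, CEP70 9 and 61, CEP72 9 and 66, CEP57L1 16 and 52, and CEP89 28 and 47. In CEP63, CEP70, CEP72, CEP57L1 and CEP89 the scaled libraries of the groups overlapped, and no test was made in the main analysis.

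Per kilobase of transcript the order of the members differed between the groups. In p-UPF1 IP the highest level was that of PCM1, at 19.4 CPM per kb, followed by CEP95 (15.8), CDK5RAP2 (13.7), CEP350 (9.80), NIN (9.78), CAMSAP2 (8.52) and PCNT (8.49). Neighbours in this order differed by no more than the larger of their SDs over libraries, except CDK5RAP2 and CEP350. In pre-IP the highest were CEP55 (11.3 CPM per kb), PCNT (8.22), CEP78 (7.60), CEP85 (7.45) and CDK5RAP2 (7.23), and neighbours there again differed by less than the larger of their SDs. CEP135, CAMSAP2 and CEP152 were low there, at 0.568, 0.992 and 0.418 CPM per kb. The highest of the 8 called genes in pre-IP was CEP95, at 5.45 CPM per kb.

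The members are long. Their median transcript is 5631 bases, against 3605 in the protein-coding genes tested, the median coding sequence is 2914.5 against 1509 bases, and the median number of exons is 19.5 against 10. Of the 8 called genes 7 have transcripts of 5000 bases or more, and CEP95 is the exception at 3139. Among tested members 7 of 21 at or above that length were called higher and 1 of 12 below it, and among all genes tested the shares were 17.0% and 5.67%. Across the 33 members the log2 fold change went with coding length at Spearman's rho = 0.40 (Pearson's r = 0.29), and across the 7467 protein-coding genes at rho = 0.46. With transcript length in place of coding length, rho was 0.26 across members and 0.34 across protein-coding genes. Among tested members of 5000 bases or more it was -0.10, and among those below that length 0.12. Points within each of these share libraries, so the values are descriptions.

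With the trend on transcript length removed in each library the median of the set was -0.01, against -0.08 for all genes, and 6 members were called (4.39% of all genes), CEP135, CAMSAP2, CEP152, CEP350, PCM1 and NIN. The longest members were not those with the largest values. CEP250 and PCNT, with transcripts of 15703 and 10560 bases, were at 0.46 and 0.04, against 3.45 for CEP135, whose transcript has 5562 bases, while CEP350, with 13491 bases, was at 2.43. The part of length in the calls was not tested beyond this removal of the trend.

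**Figure D3:**
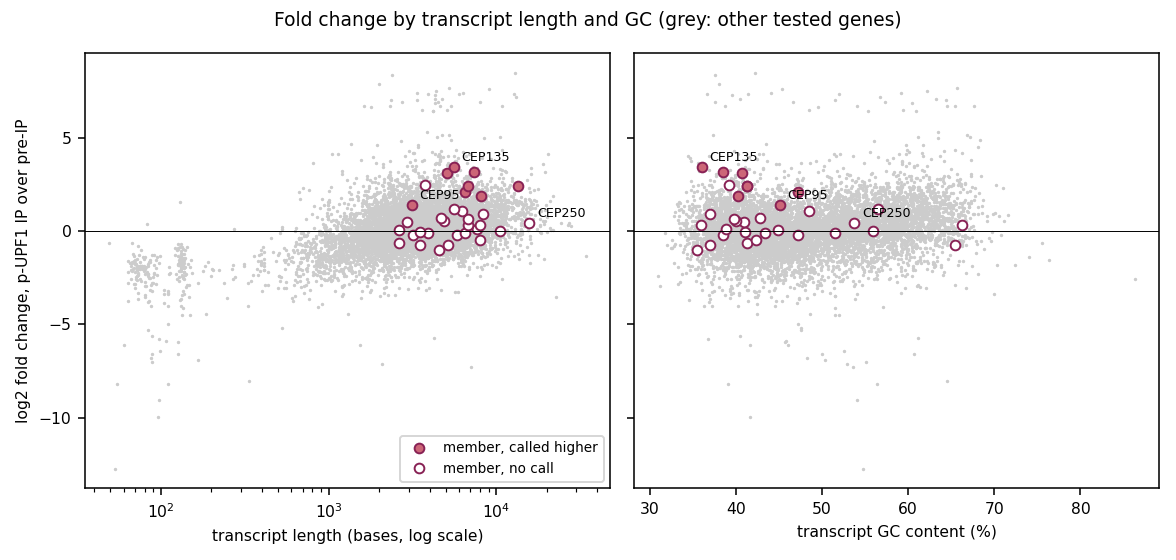
Log2 fold change of p-UPF1 IP over pre-IP against transcript length on a log axis (left) and GC content in percent (right), for 32 of the 33 tested members over the other tested genes in grey. The called members (filled) are at or above 3139 bases and at or below 47.2% GC, a range that also holds members that were not called.

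The members are also AT-rich, with a median GC content of 41.3% against 47.4% in the protein-coding genes tested. The 8 called genes lie between 36.1% (CEP135) and 47.2% (NIN), while PCNT (56.0%), CEP250 (53.7%), CEP164 (56.6%), CEP131 (65.4%) and CEP170B (66.2%), none of them called, are richer in G and C. Yet CEP290 (35.9%) and CEP44 (35.4%) are the poorest and were not called. Across members the log2 fold change went with GC at rho = -0.13, and across protein-coding genes at rho = 0.20. With the GC trend removed the median of the set was 0.54 and that of all genes -0.06, and all 8 calls were kept (6.52% of all genes were called higher). Codons for glutamate, lysine and glutamine ended in A in a median of 55.9% of cases in the set and 40.6% in protein-coding genes tested, from 6.61% in CEP170B to 69.8% in CEP126, as in the stretches printed for CEP290 and CEP164 above.

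Features tied to NMD in the annotation were common in the set. In GENCODE 29 25 of the 40 genes have at least 1 transcript typed as a nonsense-mediated decay target (62.5%, against 46.3% of protein-coding genes tested), among them 5 of the 8 called and 16 of the 25 tested and not called. CEP135, CEP295 and PCM1 are the called genes with no such transcript in the annotation. An upstream open reading frame is an ATG followed by an in-frame stop before the main start codon. It was found in the chosen transcript of 27 of 40 members (67.5%, against 44.6%). Of the 8 called 7 had it, CEP152 being the exception, and so did 16 of the 25 tested and not called (64.0%). None of the 40 chosen transcripts has an exon junction more than 50 bases after its stop codon. Such a junction was rare throughout, in 13 of the 7467 protein-coding genes tested (0.174%). The choice of transcript put the protein-coding type before decay targets. Both counts therefore largely reflect that choice and are no result about the mRNAs. The table counts genes, not isoforms, so the decay isoforms and the main mRNA cannot be told apart. In the annotation the members have a median of 11 transcripts, against 8 in the protein-coding genes tested. Before the main start codon the median is 233 bases, against 205. The part of either in the shares above was not tested.

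Other centrosome genes, from a list of 82 symbols chosen by function with earlier results of these data known, were read beside the set. The list had 78 rows in the table, and its other 4 symbols are older names of members. Of 63 tested 4 were called higher (6.35%, against 8.81% of all genes tested) and 1 lower (against 10.9%), with a median log2 fold change of 0.36, against 0.10 over all genes. Of 16 tested companions in centriole assembly 1 was called higher and 1 lower. CCP110, the cap protein that partners CEP97, rose from 5.12, 0 and 1.73 CPM to 23.5, 13.1 and 29.1 CPM (2.88, SE 0.81, adjusted p = 0.0194). RTTN, or rotatin, which acts in the same assembly, fell from 25.6, 57.3 and 62.2 CPM to 18.3, 20.7 and 13.4 CPM (-1.42, SE 0.45, adjusted p = 0.0355). RTTN has a transcript of 8088 bases, and its value was 0.12 with library totals alone, and only 1 of its 6 calls with a library left out held. CCDC14 and STIL, the most counted of that group, were at 1.03 and 0.01, neither called.

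Of the companions in the pericentriolar material and gamma-tubulin ring, TUBGCP4, a subunit of the gamma-tubulin ring complex, rose by 2.51 (SE 0.76, adjusted p = 0.0288), from 5.12, 10.7 and 0 CPM to 21.1, 29.1 and 26.8 CPM. ALMS1, the Alström syndrome protein at the base of centrioles, rose by 1.55 (adjusted p = 0.0364). CKAP5, a microtubule polymerase and the most counted companion, was at 0.71, ASPM at 0.38 and MZT2B at -1.14, all uncalled. Among satellite genes OFD1, a centriole and satellite protein, rose by 1.88 (adjusted p = 0.0299), and MIB1 (0.81), HAUS6 (-0.04) and FOPNL (-1.48, adjusted p = 0.0513) were not called. Without p-UPF1 IP replicate 3 none of the 4 increases was called, nor with the length trend removed. In these settings 273 and 342 of all genes were called higher, against 711 in the main analysis. Without p-UPF1 IP replicate 9 or 6 the number of companions called higher was 1 or 2, beside 312 or 333 of all genes. Without pre-IP replicate 1 it was 9, beside 781 of all genes. The single decrease was called only without pre-IP replicate 1 among the libraries left out.

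No call was made in the remaining companion groups. Of appendage and linker genes 6 were tested, with ODF2 at 0.48, NEK2, the kinase that dissolves the linker, at 0.82, KIF24 at 1.36 and RPGRIP1L at -0.52. Of the augmin complex, which branches spindle microtubules, HAUS7 was at 0.36, HAUS3 at 0.55 and HAUS2 at -0.82. CAMSAP1, a relative of CAMSAP2, was at 0.41 (adjusted p = 0.484), with 66 pre-IP counts against 432 p-UPF1 IP counts, beside 0.46 for MACF1 and 0.00 for KATNA1, whose products bind or sever microtubules. Whether CAMSAP1 and CAMSAP2 differ from each other was not tested.

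The calls of CEP135, CAMSAP2, CEP350 and PCM1 held in all 18 alternatives. Over these the log2 fold change ran from 3.00 to 4.91 for CEP135, 2.63 to 4.71 for CAMSAP2, 1.48 to 3.96 for CEP350 and 1.87 to 3.94 for PCM1, each highest with library totals alone. That scaling moves the median of all genes to 1.63 and that of the set to 1.93, and 22 of 33 members were then called higher, against 60.4% of all genes tested. The number of members called was 4 of 33 without p-UPF1 IP replicate 3, the deepest library, where 273 of all 8285 genes tested were called higher. It was 11 of 35 without pre-IP replicate 1, where 781 of all 8650 genes tested were called higher.

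**Figure D4:**
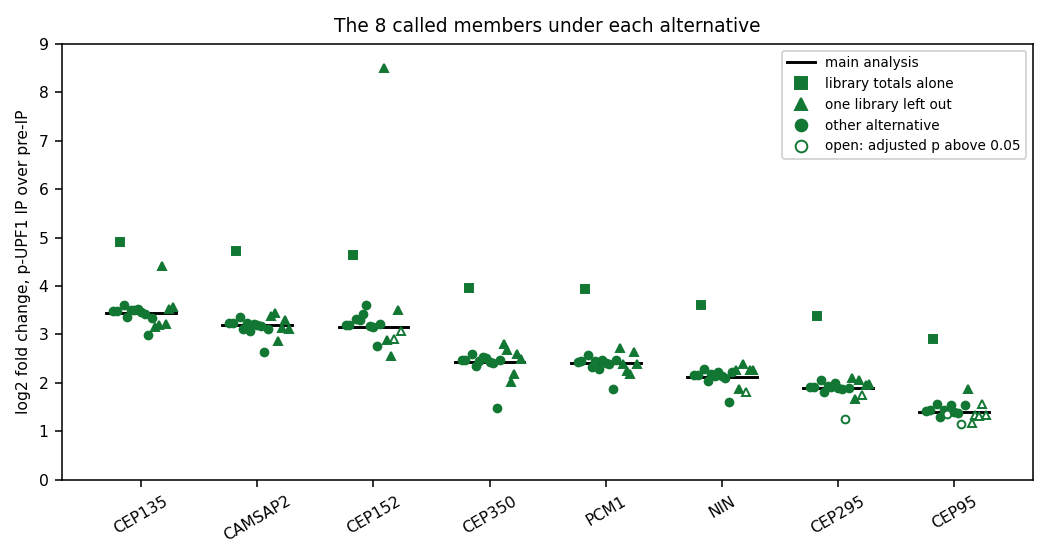
Log2 fold change of the 8 called members in the main analysis (black bar) and under each of the 17 or 18 alternatives, open where the adjusted p was above 0.05. CEP135, CAMSAP2, CEP350 and PCM1 have no open symbol, while CEP95 has 7, and the point of CEP152 at 8.50 is the fit without pre-IP replicate 1.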

How the data were processed

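The table the authors deposited holds whole-number read counts for each gene symbol, not normalized. The tools behind it, per the submitters' processing notes, were featureCounts from Subread 1.5.0p3, STAR 2.5.2b and cutadapt 1.15, with build hg19. The sources used here do not give the annotation, the strand setting or the handling of multi-mapped reads. The 6 libraries were fitted with edgeR 4.0.16 in R 4.3.3 (filterByExpr, minimum count 10, TMM, quasi-likelihood test), adjusting p over 8070 genes. The SE is |log2 fold change| over the root of F. The fit was tested on simulated data, whose outcome is not given here, and a gene without a call is not shown to be unchanged. Transcript features come from GENCODE 29 (GRCh38, another build, so no coordinates are given), matched by symbol for 23774 of 26364 genes and all 40 members, using 1 principal transcript per gene. Values of some of the genes are not reported here. Members and lists were chosen with earlier results of these data known. Per-library values were given by rule for CEP135, CAMSAP2, PCM1, PCNT, CDK5RAP2, NIN, the 8 other members with most counts and the 3 lowest folds, and other members were added. Companions named were the 2 most counted and the highest and lowest fold of each group, with ALMS1 added after its values were seen because it was called. Alternatives were other scaling (RLE, upper quartile, library totals), no filter, a minimum count of 30, DESeq2 1.42.0, limma-voom (limma 3.58.1), a replicate block, omission of the most counted 20 genes or of small structured RNAs, lowess removal of length or GC trends (span 0.3), and omission of each library.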

Additional observations from a re-analysis of the deposited data

How the results depend on the processing

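Leaving out each library gave 4 to 11 members called higher (8 with all), 273 to 795 genes called higher in all and 518 to 833 lower, 0 to 9 companions higher and 0 to 2 lower, and a median of the set from 0.0321 to 0.75. Library totals alone gave 4874 genes higher and 156 lower, 22 members higher with a median of 1.93, and 42 companions higher and 0 lower. Without the filter 1101 genes were higher, with 8 companions higher and 0 lower. With the length trend removed 342 genes and 0 companions were higher and the median of the set was -0.0124. Limma-voom gave 2 companions higher (651 of all genes), and DESeq2 and a minimum count of 30 each 2 lower (957 and 800 of all genes). No member was called lower in any alternative. The labels share no replicate number between groups, so a replicate block used the triplets 1 and 3, 4 and 6, 7 and 9. Deviations within a triplet correlated at 0.09, 0.17 and 0.10, and each library correlated best with its own triplet, a hint from the data and not the design. The replicate block called 9 members higher, 7 companions higher and 2 lower, and 780 and 876 genes in all. None of the 8 called members changed sign. Fold changes that did belong to uncalled members and to companions, of which RTTN was called. With DESeq2 the value was 0.0361 for CEP85. With the GC trend removed the value was -0.62 for CEP170B, 0.0433 for CEP41, -0.40 for PCNT, -0.28 for HAUS7. With the length trend removed the value was -0.25 for CEP170B, -0.52 for CEP250, -0.30 for CEP290, -0.13 for CEP78, -0.47 for CEP85L, -0.83 for PCNT, -0.39 for ASPM, -0.22 for CAMSAP1, -0.78 for MACF1, -0.43 for STIL. With library totals alone the value was 1.54 for CEP112, 0.77 for CEP131, 0.71 for CEP162, 1.01 for CEP192, 1.40 for CEP41, 0.57 for CEP44, 0.83 for CEP55, 1.27 for CEP57, 1.35 for CEP68, 1.39 for CEP85, 0.13 for FOPNL, 0.69 for HAUS2, 1.48 for HAUS6, 0.44 for MZT2B, 0.93 for RPGRIP1L, 0.12 for RTTN. With limma-voom the value was 0.40 for CEP112, 0.19 for CEP41, 0.44 for CEP85, -0.12 for PCNT, 0.83 for RPGRIP1L. With a minimum count of 30 the value was -0.0454 for CEP78, -0.0504 for PCNT, -0.073 for STIL. With no filter the value was 0.12 for CEP112, 0.0625 for CEP41, 0.0938 for CEP85, 0.14 for HAUS6. With the replicate block the value was 0.21 for CEP112, 0.0639 for CEP41, 0.17 for CEP85, -0.0231 for PCNT, 0.0363 for HAUS6, -0.016 for KATNA1, 0.58 for RPGRIP1L. Without small structured RNAs the value was -0.0181 for KATNA1. Leaving out each library in turn gave -0.55 to 1.10 for CEP112, -1.06 to 0.18 for CEP131, -0.000803 to 0.65 for CEP170B, -0.76 to 0.0247 for CEP192, -0.12 to 2.06 for CEP250, -0.20 to 1.10 for CEP290. It gave -0.62 to 0.59 for CEP41, -0.97 to 0.17 for CEP55, -0.62 to 0.0869 for CEP57, -0.53 to 0.0672 for CEP68, -0.44 to 1.30 for CEP78, -0.47 to 0.45 for CEP85. It gave -0.18 to 0.75 for CEP85L, -0.40 to 0.33 for PCNT, -0.19 to 0.33 for HAUS6, -0.18 to 0.90 for HAUS7, -0.31 to 0.28 for KATNA1. It gave -0.34 to 0.63 for STIL. The cause of these changes was not tested.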
